A study of Gallus gallus with 6 samples.

Results

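The transcripts of 8 hen genes that write, erase or read DNA methylation were followed through the last step of oocyte maturation: DNMT1, DNMT3A, DNMT3B, UHRF1, TET2, MBD2, MBD3 and MBD4. They were measured by 17 probe sets, namely every probe set of the chicken array whose only gene symbol in the array's annotation is one of these genes, out of 38439 probe sets tested and 13009 genes with a symbol of their own. TET2 had 5 probe sets, UHRF1 had 4, DNMT3A and DNMT3B had 2 each, and the other 4 genes had 1 each. Where a gene had several, they are lettered a, b and so on from the brightest to the dimmest by their mean over the arrays, and the plot of values by array gives the array maker's name of each. The transcripts of TET2 (3 of its 5 probe sets) and MBD3 were lower in the germinal disc region than in granulosa cells. For the region before ovulation these calls were lost with a plain t statistic, in which every probe set keeps its own variance. A lower level after ovulation than in the germinal disc region of the F1 follicle passed the test on 1 probe set of TET2 and on that of MBD3. The F1 region was taken with overlying granulosa cells, whose part in this was not tested. Both calls were lost when any array of the F1 follicle was left out. In contrast, the transcript of MBD4 was higher in the germinal disc region after ovulation than in granulosa cells. This call was also lost with the plain t statistic. Before ovulation a higher MBD4 level than in granulosa cells passed only in some settings. No probe set of DNMT1, DNMT3A, DNMT3B, UHRF1 or MBD2 passed the test in any comparison. Another test, the variance mixture of the study's methods, called DNMT3B, UHRF1 and MBD2 higher in the germinal disc region than in granulosa cells in some comparisons.

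In vertebrates a methyl group on cytosine, mostly at CG sites, is set on unmethylated DNA by DNMT3A and DNMT3B and copied onto the new strand after replication by DNMT1, which UHRF1 brings to hemimethylated sites. TET enzymes oxidize methylated cytosine as a step of its removal, and MBD4 is a glycosylase that cuts out thymine left by deamination of methylated cytosine at CG sites. MBD2 binds methylated CG sites, and MBD2 and MBD3 are alternative subunits of the NuRD complex, which joins nucleosome remodelling to histone deacetylation. In mammals the egg carries maternal transcripts of several of these enzymes, and methylation is largely rebuilt in the early embryo.

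The samples came from untreated ISA Brown laying hens of 60 weeks. Ov GDR is the germinal disc region of just ovulated oocytes, that is the small disc of egg cytoplasm that holds the nuclear material, and the study describes it as free of granulosa cells. F1 GDR is the germinal disc region of the F1 follicle, the largest follicle and the next to ovulate, taken with the granulosa cells that lie over it. F1 GCs are granulosa cells, the steroid-producing cells around the oocyte, of the same follicle stage. Each group had 2 arrays, each with RNA pooled from 25 hens. The labels name the groups only as ov, F1 and Gra_F1, with or without the suffix A. They also give total RNA, 17 and 16.5 µg in Ov GDR, 17.2 and 20 µg in F1 GDR and 7 and 14 µg in F1 GCs. The part of these amounts was not tested. The array without a suffix is given before the array A throughout. The deposited values, used here without change, are 1 log2 value per probe set from a joint gcrma normalization of the 6 arrays by the authors. Differences between group means were tested with limma over all 6 arrays and are called at a Benjamini-Hochberg adjusted p under 0.05 over all probe sets. With 2 pools a group, an exact permutation test cannot give a p below 0.333, and the p-values of this fit rest on the spread between these pools. The fit takes 1 variance per probe set over the 3 groups, which assumes that the groups vary alike. Their spreads, given below, were unlike, so each p-value also draws on the spread of the group not compared.

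The Ov GDR arrays differed more from each other than those of the other groups did. The SD of the difference between the 2 arrays of a group was 0.822 for Ov GDR, 0.432 for F1 GDR and 0.296 for F1 GCs. The excess of the 3′ over the 5′ probe set of GAPDH, which grows where RNA is broken, was 2.82 and 0.11 log2 units in Ov GDR, 0.79 and 1.77 in F1 GDR and 0.91 and 0.54 in F1 GCs. For ACTB it was 5.02 and 1.53, 2.65 and 3.57, and 3.23 and 2.46. For EEF1A1 it was 4.51 and 1.48, 1.85 and 3.10, and 1.31 and 1.09. The Ov GDR array without a suffix had the largest excess for each of these genes, and the Ov GDR array A the smallest for GAPDH and ACTB. The study reported that ribosomal RNA seemed degraded from ovulation until the egg was laid, with mRNA almost unaffected. The background of each array, set at the highest of 23 control probe sets for foreign sequences, lay between 2.76 and 3.27. Above it were 36.6% and 44% of all probe sets in Ov GDR, 48.9% and 46.9% in F1 GDR and 51.4% and 51.3% in F1 GCs. Of 10 granulosa markers, INHA and NR5A2 were at background in Ov GDR, and the summed linear level of all 10 ranged over 3955 to 4642 in Ov GDR, 8931 to 11856 in F1 GDR and 22002 to 22859 in F1 GCs. This sum mixes unlike genes. In Ov GDR against F1 GCs 7 were called lower, with differences from -4.72 for NR5A1 to -9.01 for HSD3B1. FOXL2 was higher by 0.93 (adjusted p = 0.0299), and AMH, at 1.45, was not called (adjusted p = 0.234). The sum thus does not measure how much granulosa signal was left. Of 8 measured oocyte and germ line markers, BTG4, DAZL, MOS and ZP2 were higher in Ov GDR and in F1 GDR relative to F1 GCs. GDF9 was higher by 0.39 in Ov GDR against F1 GCs (adjusted p = 0.0407), and DDX4 and BMP15 were at background on all 6 arrays. WEE1, a kinase that holds back cell division and is in the same list, went the other way, with differences of -4.26 in Ov GDR against F1 GDR (adjusted p = 0.0115), -6.06 in Ov GDR against F1 GCs (adjusted p = 0.00268) and -1.80 in F1 GDR against F1 GCs (adjusted p = 0.0363). WEE1 was at background on both Ov GDR arrays, so the values of -4.26 and -6.06 are not measured sizes. By real time RT-PCR the study found its gene wee to be expressed mainly in the germinal disc region. Whether this probe set reads that gene was not tested. In whole tissue, fewer cells of a type and less RNA per cell cannot be told apart.

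**Figure D1:**
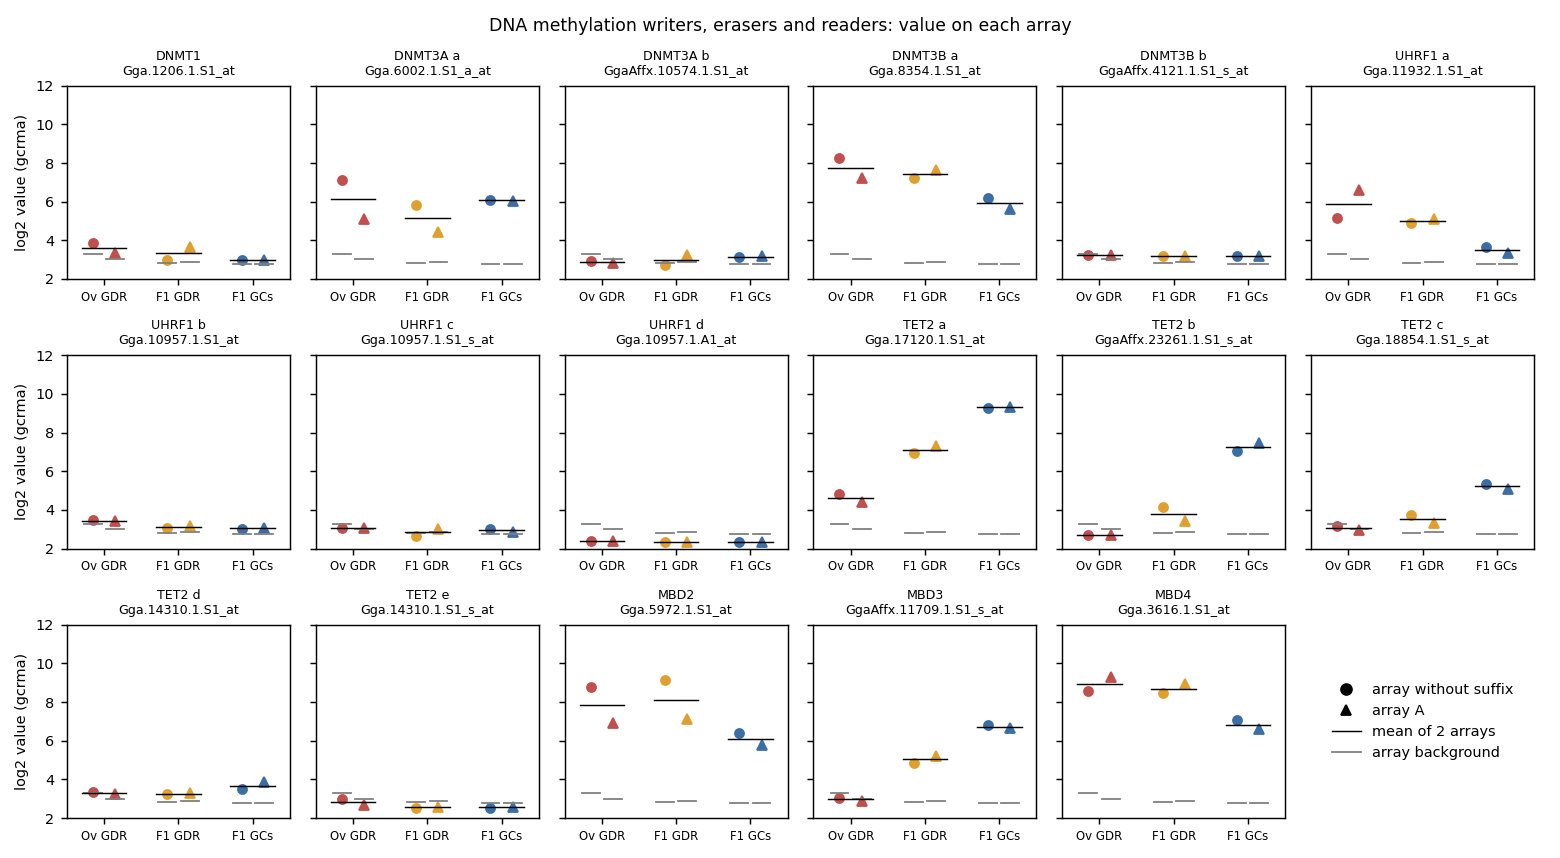
Log2 value of each of the 17 probe sets (vertical axis, gcrma log2 value) on the 2 arrays of Ov GDR, F1 GDR and F1 GCs (horizontal axis), with circles for the array without a suffix, triangles for the array A, black lines for group means and grey lines for the background of each array. TET2 a and MBD3 step up through the 3 groups, with means of 4.61, 7.12 and 9.32 and of 2.97, 5.04 and 6.72, while MBD4 is at 8.94, 8.70 and 6.84.

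Over the 3 comparisons 5 of the 17 probe sets passed the test, belonging to 3 genes. Between Ov GDR and F1 GDR 0 probe sets were higher and 2 were lower, where 0.234% of all probe sets were called higher and 1.63% lower. The counts at an unadjusted p under 0.05 were 1 higher and 3 lower, and a plain t statistic, in which every probe set keeps its own variance, called 0. Relative to F1 GCs 1 was higher in Ov GDR and 4 were lower, against 6.51% and 8.54% of all probe sets, with 5 higher and 4 lower at an unadjusted p under 0.05 and 0 higher and 4 lower by the plain t statistic. In F1 GDR 0 were higher and 4 lower, also relative to F1 GCs, against 2.1% and 3.09% of all probe sets. At an unadjusted p under 0.05 that last comparison had 3 higher and 4 lower, and the plain t statistic called 0. How many of all probe sets passed at an unadjusted p or by the plain t statistic is not given here. Those counts are thus not read as particular to the 17.

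These comparisons share groups, so their counts are not independent, and the 4 called lower against F1 GCs are 3 probe sets of TET2 and that of MBD3 in each case. The median difference of the 17 probe sets was 0.04, 0.06 and -0.00295 in these comparisons, beside 0.05, 0.07 and 0.01 over all probe sets. Of the 17, 15 were above background on both arrays of some group. UHRF1 d and TET2 e were at background on every array and carry no level. Even so, neither of them overlapped between Ov GDR and F1 GDR. Lack of overlap, named below for single probe sets, is thus not read as support.

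The balance of higher and lower calls depended on the scale. With the arrays set to equal mean levels of ACTB, GAPDH and EEF1A1, reporter genes often used as a reference for expression, the median difference of all probe sets was 0.51 between Ov GDR and F1 GDR and 0.50 between Ov GDR and F1 GCs, in place of 0.05 and 0.07. The reporter genes did not move together. Between Ov GDR and F1 GCs EEF1A1 differed by -1.57 and ACTB by 0.31, and by -1.15 and 0.74 after this scaling. Their summed linear level ran from 9885 to 16899 within Ov GDR, against 16399 to 16761 in F1 GDR. Of the 17 probe sets, 4 were then higher and 4 lower in Ov GDR relative to F1 GCs, beside 3307 and 2467 of all 38439. In F1 GDR relative to F1 GCs 2 were higher and 3 lower, beside 1354 and 1659 of all 38439. Over all probe sets 54% of the calls between Ov GDR and F1 GDR were then higher, in place of 12.6%, and 57.3% of those between Ov GDR and F1 GCs, in place of 43.2%. At this scale adjusted p-values by limma could fall far. That of RRM2, an S phase gene, went from 0.0473 to 2.36e-31 between Ov GDR and F1 GCs. With 2 arrays a group, such a value cannot measure a probe set's own spread between pools. Calls made only at this scale, here and below, are thus not read as differences beyond that spread.

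**Figure D2:**
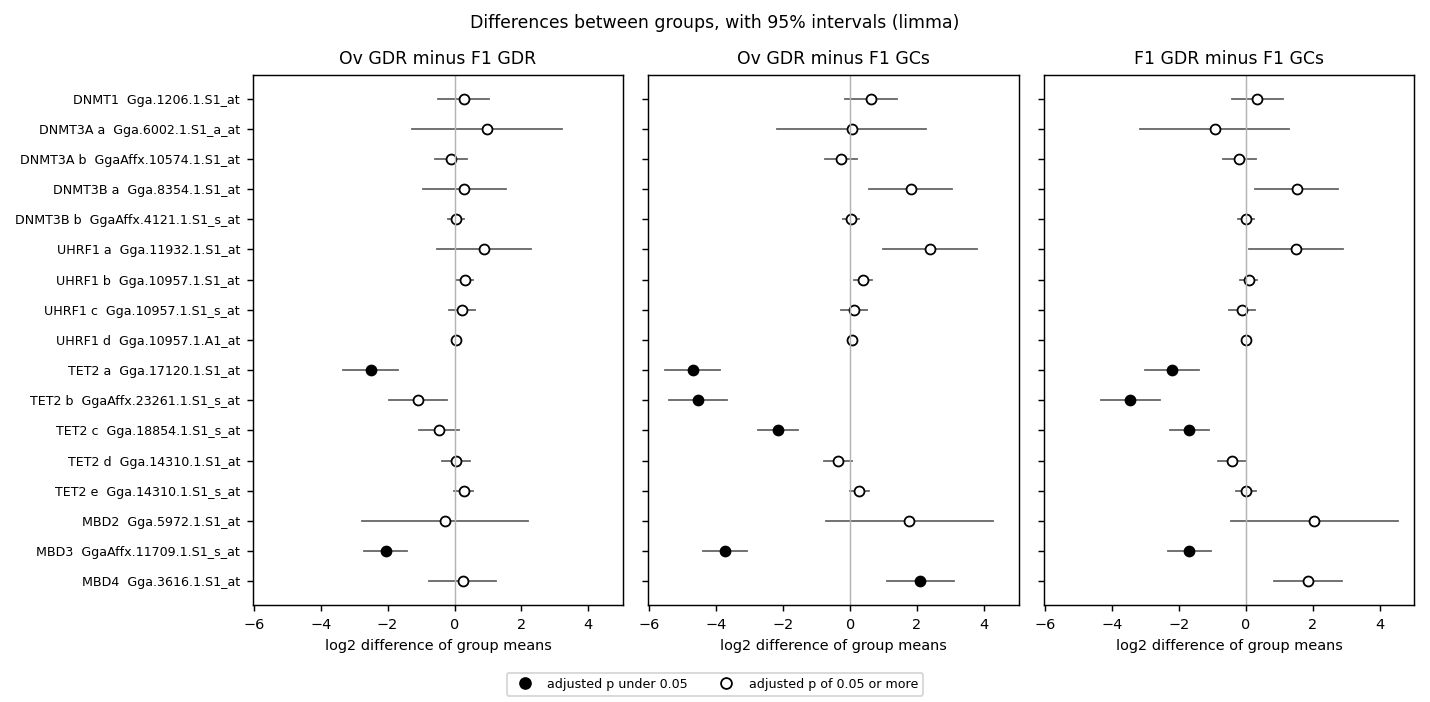
Log2 difference of group means (horizontal axis) for each probe set (vertical axis) in the 3 comparisons, with 95% intervals from limma, and filled points for an adjusted p under 0.05. The filled points are 3 probe sets of TET2 and that of MBD3, all left of 0, and MBD4, which is right of 0 at 2.10 between Ov GDR and F1 GCs.

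TET2, the enzyme that oxidizes methylated cytosine, had its clearest signal on probe set a. The log2 values were 4.83 and 4.39 in Ov GDR, 6.93 and 7.30 in F1 GDR and 9.30 and 9.35 in F1 GCs. No value of one group overlapped with those of another, and every neighbouring pair in this order passed the test. The difference between Ov GDR and F1 GDR was -2.50 (SE 0.31, 95% interval -3.32 to -1.69, adjusted p = 0.0428), or 5.68-fold lower in Ov GDR. The difference from F1 GCs was -4.71 (SE 0.31, adjusted p = 0.00366), or 26.2-fold lower in Ov GDR. F1 GDR was 4.61-fold lower relative to F1 GCs (log2 difference -2.20, SE 0.31, adjusted p = 0.0365).

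TET2 b was at background on both Ov GDR arrays, at 2.71 and 2.71. It had 4.16 and 3.44 in F1 GDR and 7.03 and 7.47 in F1 GCs. The transcript was thus at least 17.2-fold lower in Ov GDR relative to F1 GCs (log2 difference -4.54, SE 0.33, adjusted p = 0.00430), a bound against the background. In F1 GDR it was 10.9-fold lower relative to F1 GCs (-3.45, SE 0.33, adjusted p = 0.0251). The difference of -1.09 between Ov GDR and F1 GDR did not pass the test (95% interval -1.97 to -0.22, adjusted p = 0.210). These groups did not overlap.

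On TET2 c the step lay between F1 GCs and both germinal disc groups. The values were 3.18 and 2.93 in Ov GDR, at background, 3.72 and 3.33 in F1 GDR and 5.35 and 5.07 in F1 GCs. TET2 was at least 4.19-fold lower in Ov GDR relative to F1 GCs by this probe set (-2.15, SE 0.23, adjusted p = 0.00832), and 3.22-fold lower in F1 GDR relative to F1 GCs (-1.69, SE 0.23, adjusted p = 0.0338). The difference of -0.47 between Ov GDR and F1 GDR did not pass (adjusted p = 0.324).

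The other TET2 probe sets did not show these steps. TET2 d had 3.34 and 3.26 in Ov GDR, 3.23 and 3.28 in F1 GDR and 3.49 and 3.84 in F1 GCs. All of these lay little above background. Its differences from F1 GCs were -0.37 in Ov GDR (adjusted p = 0.176) and -0.41 in F1 GDR (adjusted p = 0.297). Which part of the transcript each probe set reads is not given in the sources used here, and in the array maker's naming the ending _s_at marks probes shared by several transcripts, as for TET2 b, c and e and for MBD3.

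The TET2 calls between Ov GDR and F1 GCs held for TET2 a and TET2 b whichever array was left out, with adjusted p-values of at most 0.0428 and 0.0365. For TET2 c the call was lost without the F1 GCs array that has no suffix (adjusted p = 0.0521). The TET2 call between Ov GDR and F1 GDR and those between F1 GDR and F1 GCs held only without either Ov GDR array. Without any of the other 4 arrays the adjusted p lay between 0.126 and 0.220 for TET2 a between Ov GDR and F1 GDR. The granulosa markers moved the same way, 5 of 10 being lower in Ov GDR relative to F1 GDR, 7 lower and 1 higher in Ov GDR relative to F1 GCs, and 2 lower in F1 GDR relative to F1 GCs, and their part in the TET2 differences was not tested. Of 6 measured blood and immune markers 1 was lower in Ov GDR, CD74, a chaperone of antigen presentation, with differences of -6.00 from F1 GDR (adjusted p = 0.0115) and -7.16 from F1 GCs (adjusted p = 0.00271), and the summed level of the list was 36.4 to 46.0 in Ov GDR, 368 to 420.3 in F1 GDR and 627 to 990 in F1 GCs. CD74 was at background on both Ov GDR arrays, so its differences are not measured sizes. PTPRC, CD3E and LYZ were at background in all 3 groups. Of 8 theca and stroma markers 1 was lower, the collagen gene COL1A2 in Ov GDR against F1 GCs (-2.55, adjusted p = 0.0399), with a summed level of 50.8 to 61.8 in Ov GDR, 87.0 to 147 in F1 GDR and 91.4 to 96.7 in F1 GCs, and CYP17A1, CYP19A1 and LUM at background in all 3 groups. COL1A2 was at background on both Ov GDR arrays, so its difference is not a measured size. The part of the blood, immune, theca and stroma markers was not tested either.

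MBD3, a core subunit of NuRD that in mammals does not itself bind methylated CG sites, had 1 probe set, with the same order. The values were 3.05 and 2.90 in Ov GDR, both at background, 4.85 and 5.22 in F1 GDR and 6.79 and 6.65 in F1 GCs. The groups did not overlap. MBD3 was at least 3.71-fold lower in Ov GDR relative to F1 GDR (-2.06, SE 0.25, 95% interval -2.72 to -1.41, adjusted p = 0.0404) and at least 11.9-fold lower relative to F1 GCs (-3.75, SE 0.25, 95% interval -4.40 to -3.10, adjusted p = 0.00366). In F1 GDR it was 3.22-fold lower relative to F1 GCs (-1.68, SE 0.25, adjusted p = 0.0390).

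The MBD3 call between Ov GDR and F1 GCs held whichever array was left out, with adjusted p-values of at most 0.0363. Its other calls held only without either Ov GDR array, and they were lost with equal reporter gene levels (adjusted p = 0.135 between Ov GDR and F1 GDR and 0.0650 between F1 GDR and F1 GCs). The granulosa markers counted beside TET2, and CD74 in both comparisons of Ov GDR, moved in the same direction as MBD3, and their part was not tested here either.

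MBD4, the thymine glycosylase, ran the other way. Its probe set had 8.55 and 9.32 in Ov GDR, 8.47 and 8.92 in F1 GDR and 7.06 and 6.61 in F1 GCs. The germinal disc groups overlapped with each other, and both lay above F1 GCs. MBD4 was 4.29-fold higher in Ov GDR relative to F1 GCs (2.10, SE 0.38, 95% interval 1.09 to 3.11, adjusted p = 0.0318). The difference of 1.86 between F1 GDR and F1 GCs did not pass (SE 0.38, 95% interval 0.85 to 2.87, adjusted p = 0.0740), nor did that of 0.24 between Ov GDR and F1 GDR (95% interval -0.77 to 1.25, adjusted p = 0.716).

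Of the fits with an array left out, the MBD4 call between Ov GDR and F1 GCs held only without either Ov GDR array. Without an F1 GDR array the adjusted p was 0.0740 and 0.0744, and without an F1 GCs array 0.122 and 0.181. The plain t statistic lost it as well (adjusted p = 0.0794). So did limma on the 4 arrays compared alone (adjusted p = 0.0739) and with the suffix as a block (0.0683). The call held without the mean-variance trend (adjusted p = 0.0389), with dim probe sets left out (0.00694) and by the study's variance mixture (0.00204). Between F1 GDR and F1 GCs limma called MBD4 higher on the 4 arrays of these groups (adjusted p = 0.0474) and without dim probe sets (0.0192). It did not without the trend (0.0813) or with the suffix block (0.139). With equal reporter gene levels MBD4 was called higher in Ov GDR (2.53, adjusted p = 4.18e-05) and in F1 GDR (1.83, adjusted p = 0.0117) relative to F1 GCs.

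MBD2, the reader of methylated CG sites, varied as much within the germinal disc groups as between groups. Its probe set had 8.76 and 6.94 in Ov GDR, 9.14 and 7.11 in F1 GDR and 6.39 and 5.76 in F1 GCs. In both germinal disc groups the array A was the lower one, and all 4 of these values were above those of F1 GCs. The differences were 1.77 between Ov GDR and F1 GCs (95% interval -0.71 to 4.26, adjusted p = 0.232), 2.05 between F1 GDR and F1 GCs (-0.43 to 4.54, adjusted p = 0.394) and -0.28 between Ov GDR and F1 GDR (-2.76 to 2.21, adjusted p = 0.872). With equal reporter gene levels MBD2 was called higher in Ov GDR (2.20, adjusted p = 0.00201) and in F1 GDR (2.02, adjusted p = 0.0109) against F1 GCs, and the variance mixture of the study's methods called it in F1 GDR against F1 GCs (adjusted p = 0.0407). The p-values with equal reporter gene levels carry the limit given above and do not measure the spread of MBD2 within its groups. Without the Ov GDR array that has no suffix the difference of Ov GDR from F1 GCs was 0.87, and without the Ov GDR array A it was 2.68. Without the F1 GDR array that has no suffix the difference of F1 GDR from F1 GCs was 1.04, and none of these passed.

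UHRF1, the protein that leads DNMT1 to newly copied DNA, was read by probe set a at 5.14 and 6.61 in Ov GDR, 4.88 and 5.11 in F1 GDR and 3.64 and 3.34 in F1 GCs. No Ov GDR value reached down to those of F1 GDR, and no F1 GDR value to those of F1 GCs. The difference of 2.38 between Ov GDR and F1 GCs narrowly missed the threshold (SE 0.53, 95% interval 0.98 to 3.79, adjusted p = 0.0513), and that of 1.51 between F1 GDR and F1 GCs missed it too (SE 0.53, 95% interval 0.10 to 2.91, adjusted p = 0.244). Ov GDR and F1 GDR differed by 0.88 (95% interval -0.53 to 2.28, adjusted p = 0.382).

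The call on UHRF1 between Ov GDR and F1 GCs depended on the setting. It was made without either Ov GDR array (log2 differences of 3.12 and 1.65) and with equal reporter gene levels (adjusted p = 7.29e-05). It was also made with probe sets left out that had no group mean of at least 4 (adjusted p = 0.0174). UHRF1 a passed that filter only through the germinal disc groups, with means of 5.87 and 5.00 against 3.49 in F1 GCs. The call with the filter is thus not independent support. Without any other array the call between Ov GDR and F1 GCs was not made, and the difference lay between 2.24 and 2.53. The adjusted p between Ov GDR and F1 GDR was 0.0453 without the Ov GDR array that has no suffix, and between F1 GDR and F1 GCs it was 0.0397 and 0.0386 without an Ov GDR array. The other probe sets of UHRF1 above background were near it. UHRF1 b had 3.48 and 3.41 in Ov GDR, 3.08 and 3.19 in F1 GDR and 3.03 and 3.07 in F1 GCs (difference of Ov GDR from F1 GCs 0.39, adjusted p = 0.0687), and UHRF1 c lay between 2.65 and 3.07 on all arrays. The variance mixture of the study's methods called UHRF1 a and UHRF1 b in Ov GDR against F1 GCs (adjusted p = 0.0178 and 0.00328). It called UHRF1 a in F1 GDR against F1 GCs too (adjusted p = 9.57e-07), as did the limma fit of the 4 arrays compared alone (adjusted p = 0.0366).

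DNMT3B, a writer of new methylation, was among the brighter transcripts by probe set a, with 8.24 and 7.23 in Ov GDR, 7.24 and 7.65 in F1 GDR and 6.20 and 5.64 in F1 GCs. The germinal disc groups overlapped with each other and not with F1 GCs. The difference was 1.81 between Ov GDR and F1 GCs (SE 0.47, 95% interval 0.58 to 3.05, adjusted p = 0.0716) and 1.52 between F1 GDR and F1 GCs (SE 0.47, 95% interval 0.29 to 2.76, adjusted p = 0.182), so neither passed. Without the Ov GDR array A the difference from F1 GCs was 2.32 and passed (adjusted p = 0.0249). It also passed with dim probe sets left out (adjusted p = 0.0214) and with equal reporter gene levels (adjusted p = 0.00225). The variance mixture of the study's methods called DNMT3B a in Ov GDR against F1 GCs (adjusted p = 0.0324) and in F1 GDR against F1 GCs (adjusted p = 0.000569). Ov GDR and F1 GDR differed by 0.29 (95% interval -0.95 to 1.53, adjusted p = 0.719). DNMT3B b stood between 3.18 and 3.23 on all 6 arrays.

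DNMT3A, the other writer of new methylation, had 7.14 and 5.09 in Ov GDR, 5.84 and 4.44 in F1 GDR and 6.08 and 6.06 in F1 GCs by probe set a. The F1 GCs arrays were close to each other, while the arrays of both germinal disc groups lay on either side of them or below them. No difference passed the test: 0.97 between Ov GDR and F1 GDR (95% interval -1.26 to 3.21, adjusted p = 0.504), 0.04 between Ov GDR and F1 GCs (-2.19 to 2.28, adjusted p = 0.971) and -0.93 between F1 GDR and F1 GCs (-3.17 to 1.31, adjusted p = 0.734). DNMT3A b lay between 2.72 and 3.22, at background in Ov GDR.

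DNMT1, the maintenance enzyme, was faint in every group. Its probe set had 3.87 and 3.33 in Ov GDR, 3.01 and 3.65 in F1 GDR and 3.0 and 2.96 in F1 GCs, within 1 log2 unit of the background on each array. The difference was 0.62 between Ov GDR and F1 GCs (SE 0.29, 95% interval -0.15 to 1.39, adjusted p = 0.195), 0.35 between F1 GDR and F1 GCs (adjusted p = 0.702) and 0.27 between Ov GDR and F1 GDR (95% interval -0.49 to 1.04, adjusted p = 0.578). With a single probe set so near the background, a change in DNMT1 was not detectable on these arrays unless it was large.

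The genes whose pattern over the 6 arrays was most like that of a called gene were taken by the smallest Euclidean distance between log2 values centred on their own mean. For TET2 a, among 11001 probe sets, these were GALNT7, a transferase of O-linked glycosylation, at 0.3015, MAN2B2, a mannosidase, at 0.378 and FAF1, a ubiquitin-binding protein, at 0.408. GALNT7 differed by -2.58 between Ov GDR and F1 GDR, near the TET2 value of -2.50. For MBD3, among 11003 probe sets, they were ANKRD9 at 0.264, with REEP3 and BCAP29, proteins of the endoplasmic reticulum, both at 0.290. For MBD4 they were TDP1, which frees DNA ends from trapped topoisomerase, at 0.169, POLE2, a subunit of a replicative DNA polymerase, at 0.269, and PRELID1, a carrier of mitochondrial phospholipid, at 0.279. A small distance over 6 arrays in 3 groups mostly reflects the order of the groups.

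Around these genes, lists of related genes were counted with the brightest probe set per gene, 86 genes in all. The shares set beside them are over all probe sets, many of them at background, and thus not over a set of like level. For the list counts at an unadjusted p under 0.05 no share over all probe sets is given. Among 14 measured partners of maintenance methylation, 4 were higher and 1 lower in Ov GDR relative to F1 GCs, with a median difference of 1.01 beside 0.07 over all probe sets, of which 6.51% were higher and 8.54% lower. CDCA7L, of the family of CDCA7, had 8.81 and 9.02 in Ov GDR, 8.27 and 8.40 in F1 GDR and 5.96 and 5.64 in F1 GCs. It was 8.66-fold higher in Ov GDR relative to F1 GCs (adjusted p = 0.00542) and 5.80-fold higher in F1 GDR relative to F1 GCs (adjusted p = 0.0270). CDCA7 was higher in Ov GDR relative to F1 GCs by 2.69 (adjusted p = 0.0418) and HELLS, the remodeller that works with CDCA7 in mammals, by 1.64 (adjusted p = 0.0376). SUV39H2, which sets a repressive methyl mark on histone H3, was lower by 2.48 (adjusted p = 0.00648). Between F1 GDR and F1 GCs 2 were higher, CDCA7L and the ligase LIG1, and SUV39H2 was lower by 1.74 (adjusted p = 0.0330), beside 2.1% higher and 3.09% lower over all probe sets. Between Ov GDR and F1 GDR 0 passed by limma, with 0 higher and 2 lower at an unadjusted p under 0.05.

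MBD3 sits in the NuRD complex. Of the 11 measured genes of NuRD other than the MBD proteins, 4 were higher and 0 lower in Ov GDR relative to F1 GCs, and 2 higher and 0 lower in F1 GDR relative to F1 GCs, beside 6.51% higher and 8.54% lower and 2.1% higher and 3.09% lower over all probe sets. The median differences were 1.07 and 0.86, beside 0.07 and 0.01. At an unadjusted p under 0.05 the numbers lower were 1 and 0. CHD4, its remodelling motor, had 11.26 and 11.25 in Ov GDR, 10.63 and 10.08 in F1 GDR and 8.52 and 8.41 in F1 GCs. It was 6.91-fold higher in Ov GDR relative to F1 GCs (adjusted p = 0.00451), and MTA3, a scaffold subunit, was 5.30-fold higher (adjusted p = 0.0195). MTA1, a related scaffold, was higher by 1.31 (adjusted p = 0.0109), and in F1 GDR MTA3 was higher relative to F1 GCs by 2.21 (adjusted p = 0.0463) and CHD4 by 1.89 (adjusted p = 0.0285). With equal reporter gene levels CHD4 was also higher in Ov GDR relative to F1 GDR (1.35, adjusted p = 0.0162), and 0 of the 11 were otherwise called in that comparison by limma.

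**Figure D3:**
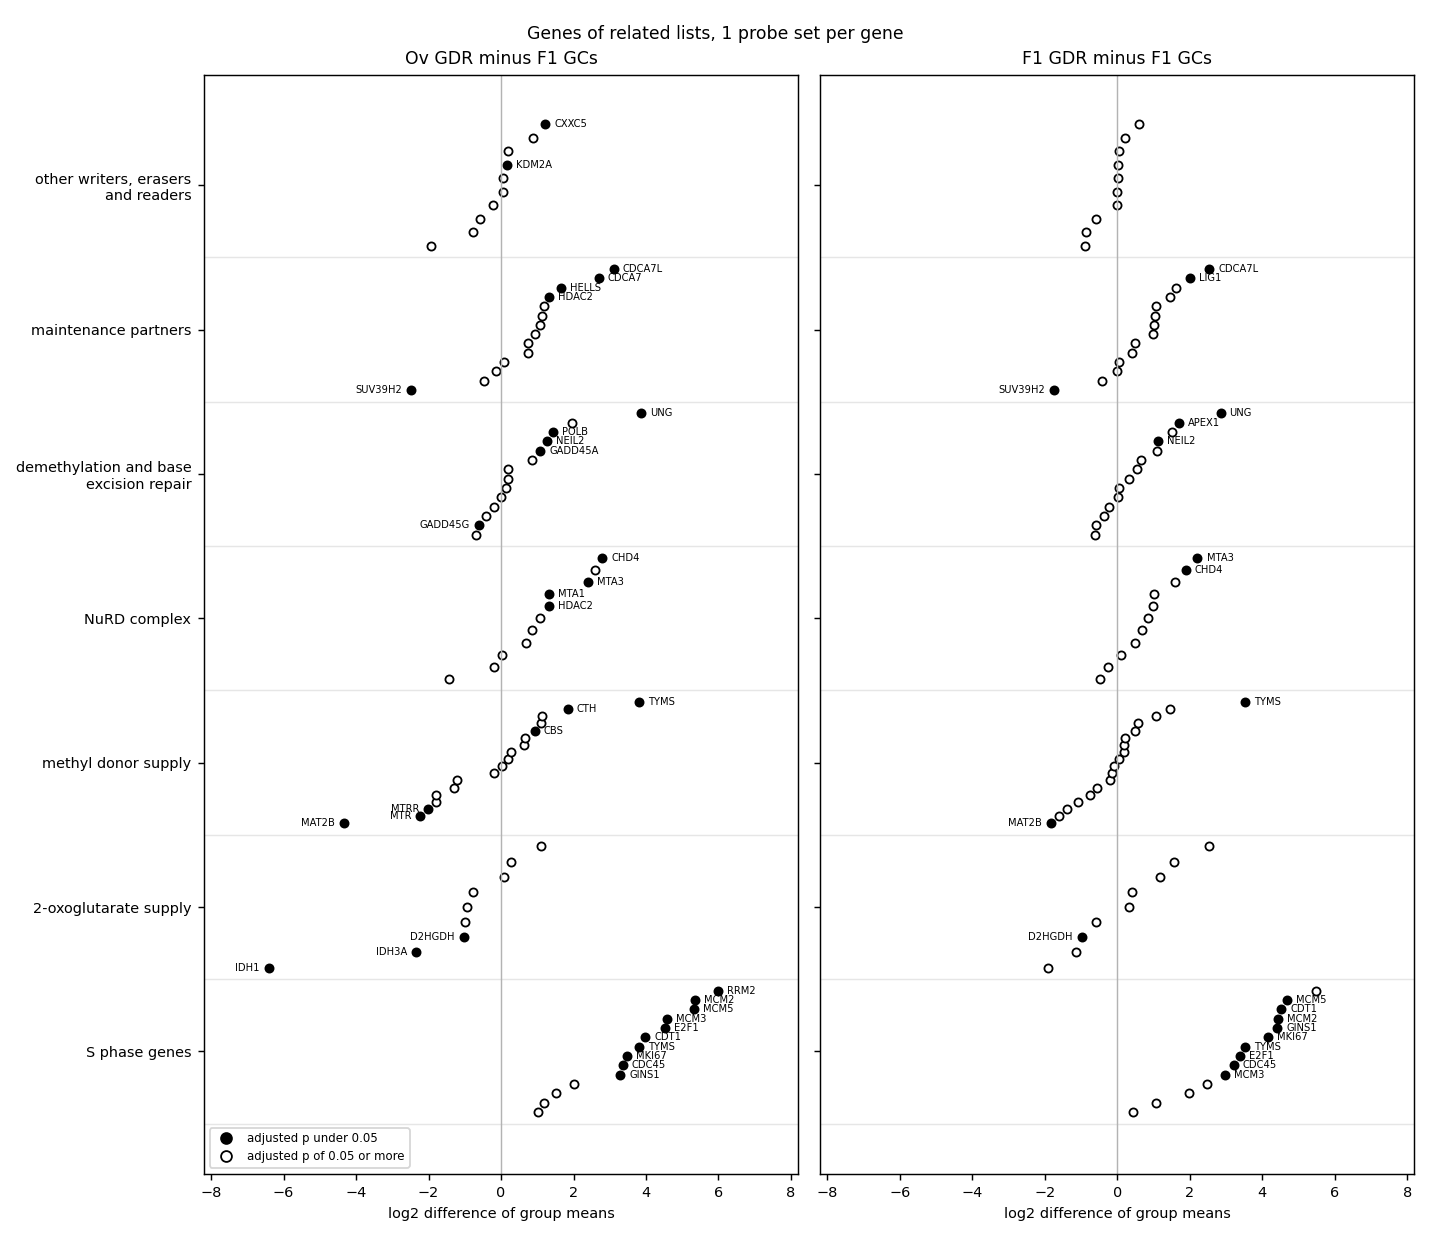
Log2 difference of group means (horizontal axis) for each gene of 7 related lists (vertical axis), with Ov GDR minus F1 GCs on the left, F1 GDR minus F1 GCs on the right, and filled, named points for an adjusted p under 0.05. S phase genes lie to the right of 0 in both panels, with RRM2 at 5.98 on the left, whereas MAT2B (-4.33) and IDH1 (-6.42) lie far to the left of 0 in the left panel.

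Of 14 measured genes of active demethylation and base excision repair, 4 were higher and 1 lower in Ov GDR relative to F1 GCs, and 3 higher and 0 lower in F1 GDR relative to F1 GCs (1 lower at an unadjusted p under 0.05). Over all probe sets the shares were 6.51% and 8.54%, and 2.1% and 3.09%, and the list's median differences were 0.19 and 0.43, beside 0.07 and 0.01. UNG, the uracil glycosylase, had 9.94 and 9.65 in Ov GDR, 8.83 and 8.72 in F1 GDR and 6.32 and 5.53 in F1 GCs, 14.6-fold higher in Ov GDR relative to F1 GCs (adjusted p = 0.00611) and 7.22-fold higher in F1 GDR relative to F1 GCs (adjusted p = 0.0307). POLB, the polymerase that fills repaired gaps, was higher in Ov GDR relative to F1 GCs by 1.44 (adjusted p = 0.0361), and NEIL2, another glycosylase, by 1.26 (adjusted p = 0.0176). GADD45G was lower by 0.62 (adjusted p = 0.0292), and not with equal reporter gene levels (-0.19, adjusted p = 0.752). APEX1, the nuclease that cuts abasic sites, was seen in F1 GDR alone, at 4.67 and 4.24, being at background at 2.88 and 3.0 in Ov GDR and at 2.74 and 2.74 in F1 GCs. It was at least 2.48-fold lower in Ov GDR relative to F1 GDR (adjusted p = 0.0390, and 0.328 with equal reporter gene levels) and at least 3.22-fold higher in F1 GDR relative to F1 GCs (adjusted p = 0.0270). TDG, the glycosylase that removes oxidized methylcytosine after TET, lay between 6.52 and 7.12 on all arrays and was not called.

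The other TET genes did not pass the test. TET1 had 9.23 and 9.16 in Ov GDR, 8.24 and 7.23 in F1 GDR and 8.44 and 8.19 in F1 GCs, with a difference of 1.46 between Ov GDR and F1 GDR (adjusted p = 0.175, and 0.00845 with equal reporter gene levels). TET3 was at background on all arrays. Of the 10 measured genes of this list of other writers, erasers and readers, 2 were higher in Ov GDR relative to F1 GCs, namely CXXC5, a CXXC zinc finger protein (1.22, adjusted p = 0.0275), and KDM2A, which was at background in both groups. Over all probe sets 6.51% were higher and 8.54% lower there, and the median difference of the list was 0.05 beside 0.07. In each of the other comparisons 0 of the 10 passed by limma, with 4 higher and 1 lower at an unadjusted p under 0.05 between Ov GDR and F1 GDR and 1 higher and 1 lower between F1 GDR and F1 GCs.

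Of 9 measured genes listed around 2-oxoglutarate, the cofactor of TET enzymes, 0 were higher and 3 lower in Ov GDR relative to F1 GCs. The list also holds genes other than the makers of 2-oxoglutarate, FH (fumarase) among them. In Ov GDR relative to F1 GDR 1 was lower, and 1 was lower in F1 GDR relative to F1 GCs. In these 3 comparisons 8.54%, 1.63% and 3.09% of all probe sets were lower. The median differences were -0.93, -1.22 and 0.32, beside 0.07, 0.05 and 0.01 over all probe sets. At an unadjusted p under 0.05 the numbers higher were 0, 0 and 2. IDH1, the cytosolic isocitrate dehydrogenase that makes 2-oxoglutarate, was at background in Ov GDR at 2.64 and 2.94, and had 7.55 and 7.04 in F1 GDR and 8.82 and 9.59 in F1 GCs. It was at least 17.8-fold lower in Ov GDR relative to F1 GDR (adjusted p = 0.0218) and at least 66.9-fold lower relative to F1 GCs (adjusted p = 0.00342). IDH3A, a subunit of the mitochondrial enzyme, was 5.08-fold lower in Ov GDR relative to F1 GCs (adjusted p = 0.0130). D2HGDH, which turns 2-hydroxyglutarate into 2-oxoglutarate, was lower by 1.03 in Ov GDR (adjusted p = 0.0196) and by 0.98 in F1 GDR (adjusted p = 0.0438) relative to F1 GCs, and neither call was made with equal reporter gene levels (adjusted p = 0.403 and 0.399). At those levels FH, fumarase, was called higher in Ov GDR against F1 GCs (1.54, adjusted p = 0.00990) and IDH2, the mitochondrial NADP-dependent isocitrate dehydrogenase, higher in F1 GDR against F1 GCs (2.51, adjusted p = 0.000429) and lower in Ov GDR against F1 GDR (-1.80, adjusted p = 0.0415).

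Of 18 measured genes listed around methyl donor supply, 3 were higher and 3 lower in Ov GDR relative to F1 GCs. Over all probe sets the shares were 6.51% and 8.54%, and the median difference of the list was 0.10 beside 0.07. The 3 higher were TYMS, CTH and CBS, and the 3 lower MAT2B, MTR and MTRR, so the count mixes unlike steps. MAT2B, the regulatory subunit of the enzyme that makes S-adenosylmethionine, had 4.97 and 4.81 in Ov GDR, 7.23 and 7.55 in F1 GDR and 9.22 and 9.22 in F1 GCs. It was 5.65-fold lower in Ov GDR relative to F1 GDR (adjusted p = 0.0323), 20.1-fold lower in Ov GDR relative to F1 GCs (adjusted p = 0.00335) and 3.56-fold lower in F1 GDR relative to F1 GCs (adjusted p = 0.0393). MTR, methionine synthase, was lower in Ov GDR relative to F1 GCs by 2.23 (adjusted p = 0.0401) and its reductase MTRR by 2.01 (adjusted p = 0.0324). MTRR was at background on both Ov GDR arrays, so its difference is not a measured size. TYMS, thymidylate synthase, was 14.0-fold higher in Ov GDR relative to F1 GCs (adjusted p = 0.0133) and 11.5-fold higher in F1 GDR relative to F1 GCs (adjusted p = 0.0359). CTH and CBS, enzymes that lead homocysteine to cysteine, were higher in Ov GDR relative to F1 GCs by 1.84 (adjusted p = 0.0376) and 0.93 (adjusted p = 0.0347, and 0.0839 with equal reporter gene levels).

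S phase genes, which accompany UHRF1 in dividing mammalian cells, were the list with the most calls. Of 14 measured genes 10 were higher (6.51% of all probe sets) and 0 lower in Ov GDR relative to F1 GCs, with a median difference of 3.65 beside 0.07 over all probe sets, and 9 were higher (2.1% of all probe sets) and 0 lower in F1 GDR relative to F1 GCs, with a median of 3.46 beside 0.01. At an unadjusted p under 0.05 the numbers were 11 higher and 0 lower in both. RRM2, a subunit of ribonucleotide reductase, was higher in Ov GDR relative to F1 GCs by 5.98 (adjusted p = 0.0473), and MCM2 and MCM5, subunits of the replicative helicase, by 5.36 (adjusted p = 0.00841) and 5.33 (adjusted p = 0.0169). In F1 GDR MCM5 was higher relative to F1 GCs by 4.69 (adjusted p = 0.0451), CDT1, a loader of that helicase, by 4.53 (adjusted p = 0.0371) and MCM2 by 4.44 (adjusted p = 0.0317). Of the 14, 0 passed by limma between Ov GDR and F1 GDR, and 1 was higher and 0 lower at an unadjusted p under 0.05. TYMS is counted in this list and the last one, and HDAC2 (1.31 in Ov GDR against F1 GCs, adjusted p = 0.0273) among both the maintenance partners and NuRD.

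Over the 86 genes together 0 were higher and 3 lower in Ov GDR relative to F1 GDR, 25 higher and 8 lower in Ov GDR relative to F1 GCs, and 16 higher and 3 lower in F1 GDR relative to F1 GCs. The shares over all probe sets were 0.234% and 1.63%, 6.51% and 8.54%, and 2.1% and 3.09% in these comparisons. With equal reporter gene levels 3 were higher and 3 lower in Ov GDR relative to F1 GDR, beside 930 and 792 of all 38439 probe sets. In all, 6 genes were called between Ov GDR and F1 GCs whichever array was left out: UNG, CHD4, MAT2B, IDH1, MCM2 and MCM3. The calls between Ov GDR and F1 GDR held only without either Ov GDR array, as did those between F1 GDR and F1 GCs apart from MCM2 and CDT1, which held without 1 further array. The summed level of 4 measured epithelial and oviduct markers was 6070 to 9984 in Ov GDR, 4252 to 6284 in F1 GDR and 40.1 to 271 in F1 GCs, with EPCAM and CLDN1 higher in Ov GDR relative to F1 GCs and CLDN1 higher in F1 GDR relative to F1 GCs. These 2 genes of epithelial cell contacts made up nearly all of that sum, since OVAL, the ovalbumin gene of the oviduct, was at background in every group and CDH1 lay between 2.74 and 3.01 on all arrays, at background in Ov GDR. The part of these markers in the genes that were higher in the germinal disc region was not tested.

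**Figure D4:**
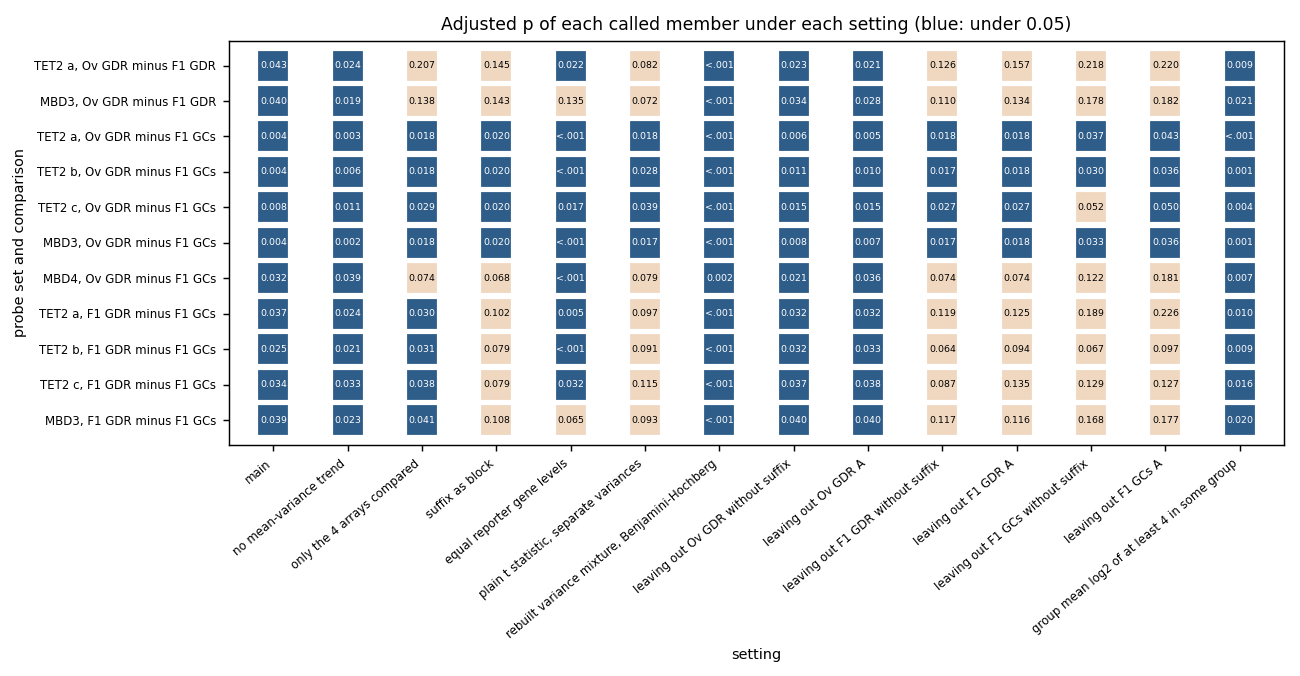
Adjusted p of each of the 11 calls on the 17 probe sets (vertical axis) under each setting (horizontal axis), in blue where it is under 0.05 and pale otherwise. The calls of TET2 a, TET2 b and MBD3 between Ov GDR and F1 GCs are blue in all columns, whereas those between Ov GDR and F1 GDR turn pale when either F1 GDR array or either F1 GCs array is left out.

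Across settings the calls therefore fell into 2 kinds. Between Ov GDR and F1 GCs, those of TET2 a, TET2 b and MBD3 held in the 6 fits with an array left out and in the 7 other settings of the plot of adjusted p by setting, though 0 of the 17 probe sets passed a Bonferroni threshold by limma. TET2 b and MBD3 passed the filter on dim probe sets only through groups where they were high. For them that setting adds no independent support. By the variance mixture of the study's methods with a Bonferroni threshold, 2 probe sets passed between Ov GDR and F1 GDR. It passed 4 between Ov GDR and F1 GCs and 6 between F1 GDR and F1 GCs. How many of all probe sets passed the mixture is not given here, so these counts are not read as particular to the 17. Of the 8 remaining calls, all but that of TET2 c between Ov GDR and F1 GCs were lost with the plain t statistic and with the suffix of the labels as a block.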

How the data were processed

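Each of 3 groups was measured on 2 Affymetrix chicken arrays. The deposited values are log2 values per probe set from the authors' joint gcrma normalization, and they were used without further scaling. For the authors' tools, no version is given in the sources used here. The column of the F1 GDR array A is given to 2 decimals. The file holds 38535 probe sets, less 96 controls of the array maker in all tests. Gene symbols came from the platform annotation, where 27168 probe sets have 1 symbol, 177 several and 11094 none, and all 17 member probe sets matched RefSeq by Entrez ID with 0 symbols changed.

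Groups were compared two-sided with limma 3.58.1 in R 4.3.3 (lmFit and eBayes with a mean-variance trend, 3 residual and 1.66 prior degrees of freedom), with Benjamini-Hochberg adjustment over 38439 probe sets. This takes the place of the variance mixture with a Bonferroni threshold of the methods, which was rebuilt as an alternative. The script was tested on simulated data. Background was to be the highest of the bacterial control probe sets, but dap, lys, phe and thr proved to have been added to the samples, so the 23 trp and Tag controls were used. A group with both arrays at or under background has only a bound, and folds against it are given as "at least". The number of arrays limits the precision.

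The 8 genes and the lists of related genes and markers were chosen with earlier results of these data known. Every probe set of the 8 genes is named, and of each list the called genes with the largest absolute difference, up to 3 per direction and comparison. For each gene with a call the 3 genes of most similar pattern are named, among probe sets with a group mean of at least 4. The reporter genes, TDG, TET1, TET3, HDAC2, FH, IDH2, GDF9 and the markers at or near background were named after their values had been seen. The alternatives were no trend, a fit of the 4 arrays compared alone, a filter on dim probe sets, the suffix as a block, equal reporter gene levels, other tests and thresholds, and each array left out.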

Additional observations from a re-analysis of the deposited data

How the results depend on the processing

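Of 567 alternative values of single probe sets 476 kept direction and side of the threshold, 48 lost the call, 27 gained one and 16 changed sign. Of the 17 probe sets 2 were called between Ov GDR and F1 GDR. That count was 0 with only the 4 arrays compared, with the suffix as a block, with the plain t statistic and with the Bonferroni threshold by limma, 1 with equal reporter gene levels, and 0 to 3 with an array left out. Between Ov GDR and F1 GCs the 5 calls became 8 with equal reporter gene levels, 8 with the variance mixture, 0 with Bonferroni by limma and 3 to 9 with an array left out. For F1 GDR minus F1 GCs the 4 calls became 0 with the suffix as a block, with the plain t statistic and with Bonferroni by limma, 8 with the mixture and 0 to 6 with an array left out. With the mixture and a Bonferroni threshold the counts were 2, 4 and 6. No count over all probe sets stands beside the counts of the alternatives here, so they are not read as particular to the 17. The cause of these changes was not tested. Among the 86 related genes the count between Ov GDR and F1 GDR was 6 with equal reporter gene levels in place of 3, and 0 to 17 with an array left out, which was chosen after seeing the data. It was then 8 to 44 in place of 33 for Ov GDR minus F1 GCs and 0 to 27 in place of 19 between F1 GDR and F1 GCs.

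The suffix does not pair the samples by the data: deviations from the group means of arrays with the same suffix correlated at -0.153 (Ov GDR and F1 GDR), 0.168 (Ov GDR and F1 GCs) and -0.145 (both F1 groups) over 38439 probe sets. With the suffix crossed in F1 GDR, chosen after seeing the data, the block gave 0, 4 and 0 calls.

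No probe set that changed sign had a call in the same comparison. With equal reporter gene levels DNMT3A b was at 0.36 and MBD2 at 0.18 between Ov GDR and F1 GDR, and DNMT3A b at 0.14 and TET2 d at 0.063 between Ov GDR and F1 GCs. With an array left out the range between Ov GDR and F1 GDR was -0.047 to 0.60 for DNMT1, -0.054 to 2.0 for DNMT3A a, -0.35 to 0.16 for DNMT3A b, -0.22 to 0.80 for DNMT3B a, -1.29 to 0.74 for MBD2 and -0.14 to 0.62 for MBD4. It was -0.98 to 1.07 for DNMT3A a between Ov GDR and F1 GCs. For F1 GDR minus F1 GCs it was -0.44 to 0.062 for DNMT3A b, -0.00988 to 0.00398 for DNMT3B b and -0.29 to 0.088 for UHRF1 c. In these fits a group with 1 array left is assumed to vary like the others.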
